A study of Mus musculus with 12 samples.

Results

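A set of 10 transcripts of stimulus-induced transcription factors was followed in mouse macrophages that carry 1 or no working copy of Hdac3: Fos, Fosl2, Jun, Junb, Jund, Batf, Atf3, Egr1, Egr2 and Egr3. They were chosen by name as the AP-1, Atf3 and Egr factors, with earlier results of these data known. Counts of these factors are thus no test against the shares of all genes given beside them. All 10 were measured, out of 19945 genes tested. Each was read by a single probe set. RNA came from primary bone marrow-derived macrophages (BMDM) of C57BL/6 origin, cultured in L929-conditioned medium, which supplies the growth factor CSF1, and used on day 7. The 4 groups of 3 arrays were HDAC3 +/- untreated, HDAC3 +/- treated for 4 h with lipopolysaccharide (LPS, the bacterial ligand of TLR4) at 100 ng/ml, HDAC3 -/- untreated, and HDAC3 -/- given the same LPS. The controls, labelled wild type, thus lack 1 Hdac3 allele themselves, and the sources used here do not give how the alleles were deleted, or in which cells.

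AP-1 is a family of basic leucine zipper (bZIP) dimers formed by Fos and Jun proteins, with Batf and Atf3 as related partners. Egr1, Egr2 and Egr3 are zinc finger proteins that bind GC-rich sites. In macrophages TLR4 drives MAP kinases and NF-kB, which switch on many of these genes within minutes as immediate early genes, and the induced factors then act on cytokine and protease genes. Hdac3 is the catalytic subunit of the NCoR and SMRT corepressor complexes.

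Motifs known for autoregulation or for induction by growth and stress signals were looked up in the promoters of the factors. RefSeq promoter windows of assembly GRCm38.p6, from 250 bases before to 50 bases after a transcript start, were used for 8 of the 10 genes, all but Egr1 and Egr3, in 12 windows of which 5 belong to Egr2. The Jun window, on the minus strand of chromosome 4, held TGACATCA, a variant of the AP-1 site known from the Jun promoter. The Egr2 windows on chromosome 10 held 2 CArG boxes, the element bound by serum response factor (Srf). The Fosl2 window on chromosome 5 held an Egr site, GCGNGGGCG, and a kB site, the element of NF-kB. These stretches are shown because their binding factors or their upstream kinases are measured in the same arrays; capitals mark the motif, and each is written 5′ to 3′ on the strand of the gene.
Jun, chr4:95052249-95052278, minus strand, motif 45 bases before the start: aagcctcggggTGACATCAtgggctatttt
Egr2, chr10:67537484-67537513, plus strand, motif 72 bases before one start: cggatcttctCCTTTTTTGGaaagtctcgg
Egr2, chr10:67537787-67537816, plus strand, motif 72 bases before a further start: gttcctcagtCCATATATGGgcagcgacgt
Fosl2, chr5:32136383-32136412, plus strand, Egr site 79 bases before the start: ccggctgcgcGCGGGGGCGgaagggcgcgc
Fosl2, chr5:32136280-32136309, plus strand, kB site 182 bases before the start: agatcggggaGGGAGTCCCCcagagctgcc

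Both strands were searched, and overlapping matches were counted as found. Of 32851 windows of all genes 1.63% held a CArG box, and Egr2 was the only one of the 8 factors to do so. This does not set Egr2 apart, since it had 5 of the 12 windows and Egr1 was not searched. Sites more than 250 bases before a start were not searched for any gene. TGACATCA stood in 3.62% of windows, the Egr site in 5.55% and the kB site in 8.46%, the last also in windows of Egr2 and Fos. The plain AP-1 site TGANTCA (7.81% of windows) and the cAMP response element TGACGTCA (1.79%) were in 0 of the 8 genes' windows. A match describes letters only; binding was not measured here.

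The values are log2 signals, and a level of one gene is not set against that of another, because each probe set has its own response. Array medians ran from 5.19 to 5.37 in log2 signal, and with 3 arrays a group precision is limited by their number. Interquartile ranges were less alike, from 3.19 in an LPS-treated to 3.80 in an untreated HDAC3 +/- array. Since the labels do not tie replicates to separate animals, a p-value here speaks of the spread among these arrays alone. The Hdac3 signal was 9.17 ± 0.230 (SD, n = 3) and 8.86 ± 0.184 in HDAC3 +/- cells without and with LPS, and 7.43 ± 0.0792 and 7.11 ± 0.178 in HDAC3 -/- cells, without overlap, as the labels state. Single arrays are written as -/- LPS 3, which stands for replicate 3 of the LPS-treated HDAC3 -/- cells. Replicate 1 of both HDAC3 +/- groups stood apart: Xist was at 3.93 and 3.20 there, against 9.67 or more in the other 10 arrays, and the Y-linked Eif2s3y was at 7.76 and 7.93, against 2.47 or less. By these genes those 2 arrays hold RNA of male mice and the others of female mice, so replicates of the HDAC3 +/- groups come from more than 1 animal, and results that turn on these arrays are given with and without both. All 8 macrophage markers lay above the median signal in all 4 groups (summed as a list mean of 10.91 to 11.64 per array, lowest in HDAC3 -/- cells with LPS). Of markers of other cells, 0 of 5 for dendritic cells, 0 of 4 for B cells, 0 of 4 for NK cells and 0 of 5 for mast cells did so in any group. The counts were 0 to 1 of 6 for neutrophils, 2 to 3 of 6 for fibroblasts, 1 to 2 of 4 for T cells, and 0 to 1 of 4 for endothelial cells. The part of these cells in the results was not tested. In bulk RNA, fewer cells of a type and less RNA per cell cannot be told apart.

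**Figure D1:**
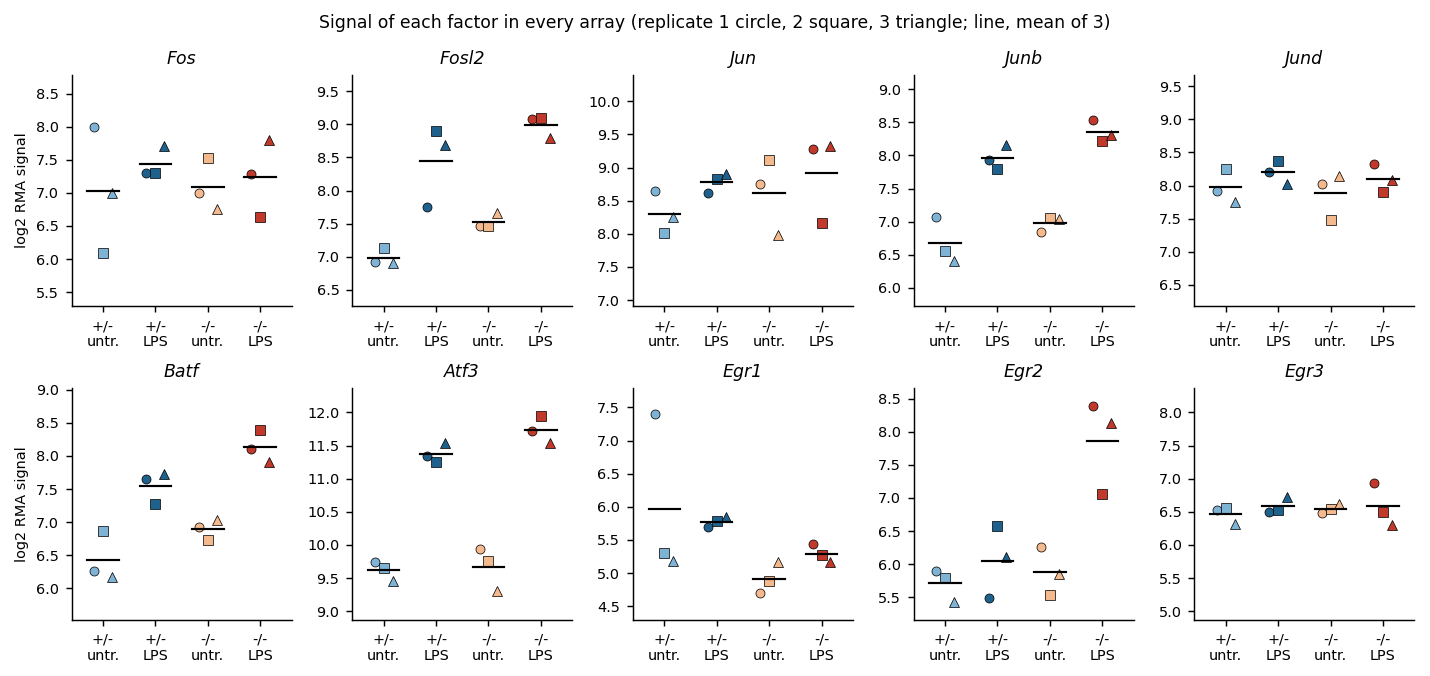
Log2 RMA signal (y axis) of the 10 factors in each of 12 arrays, by genotype and treatment; points are arrays, lines are means of 3, and the y axes have a common length but their own origin and do not start at 0. Atf3, Junb, Batf and Fosl2 lie higher with LPS in both genotypes, Egr2 is highest in HDAC3 -/- cells with LPS, and 1 untreated HDAC3 +/- array stands high for Egr1.

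What LPS did to the factors was asked first in the HDAC3 +/- cells. At 4 h 4 of the 10 factors were higher with LPS and 0 were lower (limma, adjusted p under 0.05), namely Atf3, Fosl2, Junb and Batf. Over all genes 9.59% were called higher and 15.5% lower, and the median log2 difference was 0.44 over the 10 factors and 0.08 over all genes. In HDAC3 -/- cells 5 of 10 were higher and 0 lower, with Egr2 added to the same 4 genes. There 3.69% of all genes were called higher and 5.18% lower, and the median log2 difference was 0.81 over the factors and 0.02 over all genes. Fos, Jun, Jund, Egr1 and Egr3 did not pass in either genotype. Differences are given ± 1 SE of the model.

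Atf3, a bZIP factor known as a feedback repressor of TLR4-induced cytokine genes, moved most clearly. HDAC3 +/- cells gave log2 signals of 9.74, 9.66 and 9.46 untreated and of 11.35, 11.25 and 11.54 with LPS. HDAC3 -/- cells gave 9.93, 9.76 and 9.30 without and 11.71, 11.94 and 11.53 with LPS. Treated and untreated arrays were more than 1 log2 unit apart in both genotypes. The rise was 1.76 ± 0.172 (limma, adjusted p = 7.33e-06), a 3.39-fold change, in HDAC3 +/- and 2.06 ± 0.172 (4.46e-06), 4.18-fold, in HDAC3 -/- cells. The response in HDAC3 -/- cells minus that in HDAC3 +/- cells was 0.30 (95% interval -0.22 to 0.83), which did not pass. The HDAC3 -/- and +/- means differed by 0.04 untreated and by 0.35 after LPS, neither past the threshold.

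Fosl2 encodes Fra-2, a Fos family protein that, unlike Fos, lacks a strong activation domain. In HDAC3 +/- cells it read 6.93, 7.13 and 6.91 untreated and 7.76, 8.91 and 8.69 with LPS, the lowest treated array being the male replicate 1. Cells without Hdac3 read 7.46, 7.47 and 7.66 untreated and 9.09, 9.10 and 8.79 with LPS. No treated array overlapped an untreated one of its genotype. The rise was 1.47 ± 0.231 (limma, adjusted p = 0.000405) in HDAC3 +/- and 1.46 ± 0.231 (0.00109) in HDAC3 -/- cells, and the responses differed by -0.01 (95% interval -0.71 to 0.70). Without both male arrays the rise in HDAC3 +/- cells was 1.78 ± 0.171 (adjusted p = 3.24e-05).

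Junb, a Jun family protein with a dimerization preference of its own, read 7.08, 6.56 and 6.41 untreated and 7.93, 7.80 and 8.16 with LPS in HDAC3 +/- cells. In HDAC3 -/- cells it read 6.85, 7.06 and 7.04 untreated and 8.53, 8.22 and 8.30 with LPS. Every treated array lay above every untreated array of either genotype. The rise was 1.28 ± 0.174 (limma, adjusted p = 0.000122) and 1.37 ± 0.174 (0.000178) in HDAC3 +/- and -/- cells. The responses differed by 0.09 (95% interval -0.44 to 0.62).

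Batf lacks an activation domain and pairs with Jun proteins, often beside IRF factors. It read 6.26, 6.86 and 6.17 untreated and 7.66, 7.28 and 7.72 with LPS in HDAC3 +/- cells, and 6.92, 6.74 and 7.03 untreated and 8.11, 8.39 and 7.91 with LPS in HDAC3 -/- cells. The treated arrays of each genotype lay above all untreated ones. The rise was 1.12 ± 0.196 (limma, adjusted p = 0.000896) and 1.24 ± 0.196 (0.00109), and the responses differed by 0.12 (95% interval -0.48 to 0.72). In both genotypes the 4 calls of Atf3, Fosl2, Junb and Batf held under every alternative run, each array left out in turn and both male arrays left out included.

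**Figure D2:**
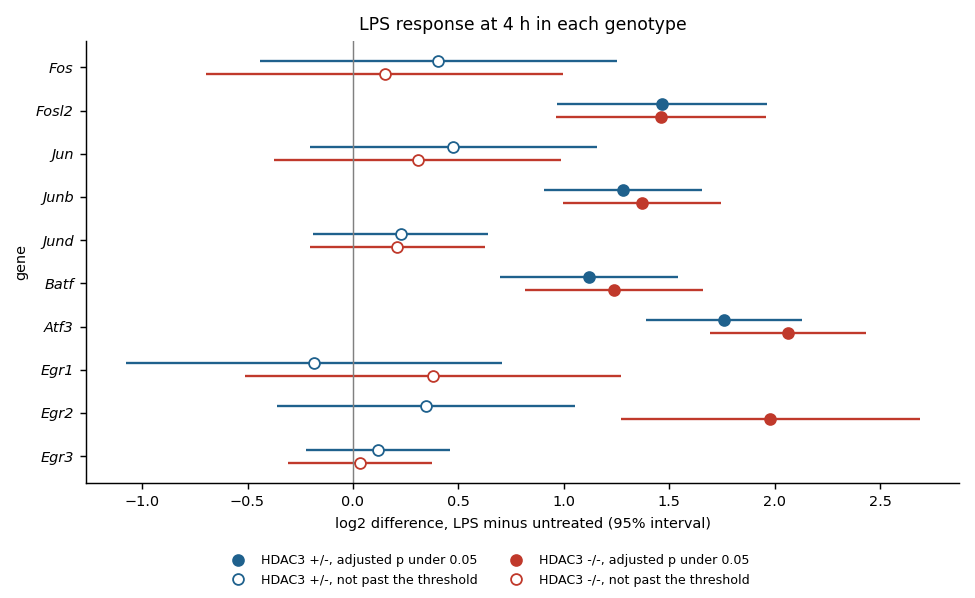
Log2 difference between LPS-treated and untreated arrays (x axis) for each factor (y axis) in HDAC3 +/- and HDAC3 -/- cells, with 95% intervals of the limma model; filled points have an adjusted p under 0.05. Atf3, Fosl2, Junb and Batf are filled in both genotypes, and Egr2 is filled only in HDAC3 -/- cells, at 1.98 against 0.35.

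Egr2, a zinc finger factor known from macrophage and lymphocyte activation, gave the one genotype difference that passed the test. HDAC3 +/- cells gave log2 signals of 5.90, 5.80 and 5.43 untreated and of 5.48, 6.57 and 6.11 with LPS. HDAC3 -/- cells gave 6.26, 5.53 and 5.85 untreated and 8.39, 7.06 and 8.13 with LPS. The first 3 of these groups overlapped, and all 3 HDAC3 -/- arrays with LPS lay above every other array. The signals of +/- untreated 3 (5.43) and +/- LPS 1 (5.48) were below 5.53, the median signal, and -/- untreated 2 was at that limit. Outside HDAC3 -/- cells with LPS, Egr2 was thus in part a weak signal. By group mean the order was HDAC3 +/- untreated (5.71 ± 0.244, SD, n = 3), HDAC3 -/- untreated (5.88 ± 0.368), HDAC3 +/- with LPS (6.05 ± 0.547) and HDAC3 -/- with LPS (7.86 ± 0.702), where the first 3 did not differ beyond their spread. LPS raised it in HDAC3 -/- cells by 1.98 ± 0.329 (limma, adjusted p = 0.00160, 95% interval 1.27 to 2.69). In HDAC3 +/- cells the difference was 0.35 ± 0.329 (adjusted p = 0.453, 95% interval -0.36 to 1.05).

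After LPS the HDAC3 -/- cells exceeded the HDAC3 +/- cells in Egr2 by 1.81 ± 0.329 (limma, adjusted p = 0.00222, 95% interval 1.10 to 2.51), a 3.50-fold difference. It was the 1 factor of 10 called higher after LPS, with 0 lower, where 9.69% of all genes were called higher and 5.99% lower. Untreated, the genotypes differed in Egr2 by 0.17 and did not pass. The test of the difference between both LPS responses gave 1.63 ± 0.465 (95% interval 0.63 to 2.64) with an adjusted p of 0.128, so the responses were not shown to differ over all genes. The adjusted p was 0.0839 with a random block for replicate numbers within each genotype, 0.0291 with a fixed one that was chosen after seeing the data, and 0.0511 with array weights. Without -/- LPS 2, the lowest of its group, the difference was 2.03 (0.0293). Without both male arrays it was 1.25 (0.252), while the genotype difference after LPS was 1.52 ± 0.344 (0.0115). Over all alternatives the adjusted p of the difference after LPS ranged from 0.000360 to 0.0159.

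Egr1, the prototype immediate early zinc finger gene, read 7.39, 5.30 and 5.19 untreated and 5.70, 5.78 and 5.84 with LPS in HDAC3 +/- cells. Cells without Hdac3 read 4.70, 4.88 and 5.17 untreated and 5.45, 5.27 and 5.17 with LPS. The male untreated array lay over 1 log2 unit above every other array. In each treatment all 3 HDAC3 -/- arrays lay below all 3 HDAC3 +/- arrays, though the nearest untreated ones were at 5.17 and 5.19. All 6 HDAC3 -/- arrays and 2 of the untreated HDAC3 +/- arrays were below 5.53, the median signal used as the limit for dim genes, so the differences of Egr1 are between weak signals. The difference, HDAC3 -/- minus +/-, was -1.05 ± 0.414 untreated (limma, adjusted p = 0.278) and -0.48 ± 0.414 after LPS (0.486), and neither passed. Without both male arrays it was -0.33 ± 0.163 (0.463) and -0.52 ± 0.163 (0.0487), so the second then passed. Without the male untreated array alone the values were -0.33 (0.490) and -0.48 (0.0408). The LPS response in HDAC3 +/- cells turned with that array, from -0.18 ± 0.414 (0.758) with it to 0.53 ± 0.162 (0.0340) without it and 0.57 ± 0.178 (0.0373) without both male arrays. In HDAC3 -/- cells the response was 0.38 ± 0.414 (0.717), without overlap, though the nearest treated and untreated arrays were both at 5.17.

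Egr3, a further member of the family, read 6.52, 6.56 and 6.32 untreated and 6.50, 6.53 and 6.73 with LPS in HDAC3 +/- cells. It read 6.48, 6.55 and 6.62 untreated and 6.94, 6.50 and 6.30 with LPS in HDAC3 -/- cells. The 4 groups overlapped. The LPS difference was 0.12 (95% interval -0.22 to 0.46) in HDAC3 +/- and 0.03 (-0.31 to 0.37) in HDAC3 -/- cells.

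Fos and Jun, whose proteins form the classical AP-1 dimer, had widely spread replicates, and neither passed in any comparison. Fos read 7.99, 6.08 and 7.01 untreated and 7.29, 7.30 and 7.70 with LPS in HDAC3 +/- cells. Cells without Hdac3 had Fos at 6.99, 7.53 and 6.76 untreated and 7.29, 6.64 and 7.80 with LPS. All 4 groups overlapped, and the LPS differences were 0.41 (95% interval -0.44 to 1.25) and 0.15 (-0.70 to 1.00). Jun read 8.65, 8.01 and 8.26 untreated and 8.61, 8.83 and 8.90 with LPS in HDAC3 +/- cells, and 8.75, 9.12 and 7.98 untreated and 9.28, 8.16 and 9.33 with LPS in HDAC3 -/- cells. The Jun differences with LPS were 0.48 (95% interval -0.21 to 1.16) and 0.31 (-0.38 to 0.99), and its groups overlapped too.

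The residual SD over the 4 groups was 0.603 for Fos, 0.638 for Egr1, 0.497 for Egr2 and 0.476 for Jun, against a median of 0.202 over all genes. These lay at the 98.3, 98.6, 96.7 and 96.2 percentiles of all genes. Fosl2 was at 0.328, and Batf, Jund, Junb, Atf3 and Egr3 were between 0.189 and 0.264. The replicates of Fos and of Jun were ranked alike in all 4 groups, which was seen after their values were known. Of the other 19944 genes 11, or 0.0552%, had the replicate order of Fos in every group, and Jun was the only one among the 9 other factors. None of the 19 other immediate early genes on a fixed list had that order. Whether handling or timing of the cultures moved with it was not tested.

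**Figure D3:**
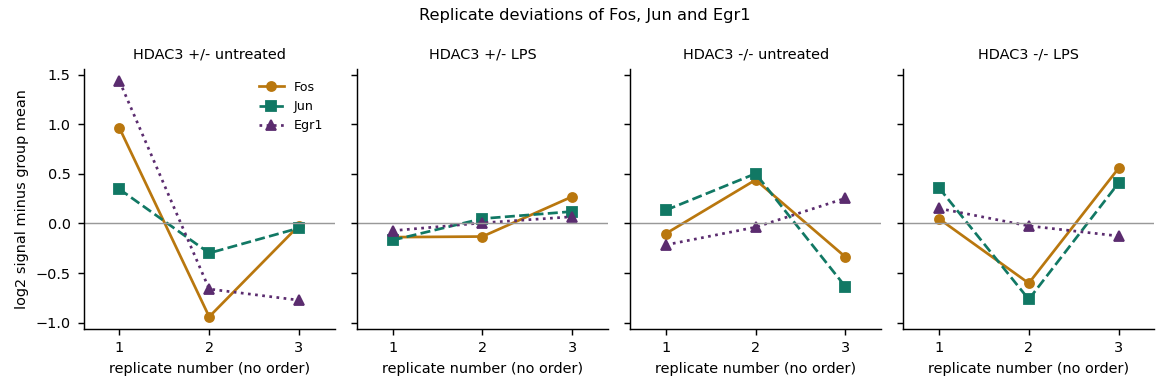
Log2 signal minus the mean of its group (y axis) for Fos, Jun and Egr1 in each replicate (x axis, whose numbers have no order), 1 panel per group; lines only join the points of a gene. Fos and Jun have the same highest and lowest replicate in every panel, and Egr1 shares their highest replicate in both HDAC3 +/- panels only.

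Jund, the Jun family member that is made in most resting cells, read 7.92, 8.24 and 7.75 untreated and 8.20, 8.37 and 8.02 with LPS in HDAC3 +/- cells. It read 8.03, 7.48 and 8.15 untreated and 8.32, 7.90 and 8.08 with LPS in HDAC3 -/- cells. The groups overlapped, and the LPS differences were 0.23 (95% interval -0.19 to 0.64) and 0.21 (-0.20 to 0.63).

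Between the genotypes, 0 of the 10 factors passed in untreated cells (limma), where 2.66% of all genes were called in either direction. At an unadjusted p under 0.05 there were 3 factors, Egr1, Fosl2 and Batf. Fosl2 was higher in HDAC3 -/- cells by 0.54 ± 0.231 (adjusted p = 0.324) untreated and by 0.54 ± 0.231 (0.139) after LPS, and the untreated arrays did not overlap. Without both male arrays these values were 0.51 ± 0.156 (0.149) and 0.19 ± 0.156 (0.421). Batf was higher by 0.46 ± 0.196 (0.324) and by 0.58 ± 0.196 (0.0614), without overlap after LPS. The Batf difference after LPS passed in 3 of the alternatives, at 0.0469 with dim genes left out, 0.0442 with array weights and 0.0273 without +/- untreated 2. Junb differed by 0.30 and 0.39, and its arrays did not overlap after LPS (adjusted p = 0.153). The share of all genes without overlap was not counted, so lack of overlap only describes these arrays. The comparison without and the one with LPS use different arrays. The values for Fos were 0.07 and -0.19, for Jun 0.31 and 0.14, for Jund -0.08 and -0.10 and for Egr3 0.08 and -0.01, none of them past the threshold.

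The LPS responses of the 10 factors were then compared between genotypes. By limma 0 of 10 passed, 1.08% of all genes did in either direction, and 1 factor, Egr2, had an unadjusted p under 0.05. The median difference of responses was 0.04 over the factors and -0.02 over all genes. For Egr1 it was 0.57, and it turned to -0.19 without both male arrays. For Fos it was -0.26, for Jun -0.17, for Jund -0.01 and for Egr3 -0.09.

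**Figure D4:**
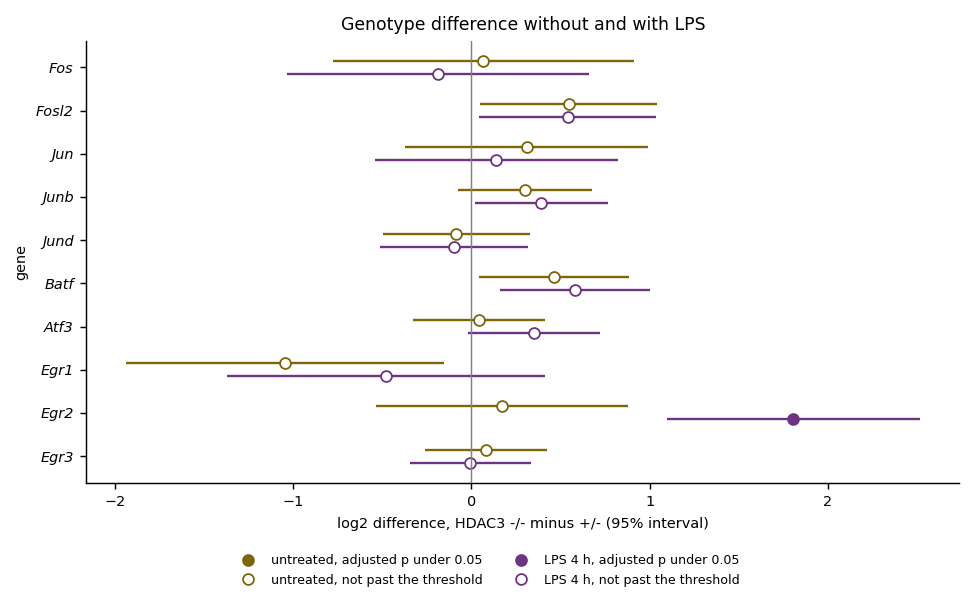
Log2 difference between HDAC3 -/- and HDAC3 +/- arrays (x axis) for each factor (y axis), untreated and after 4 h of LPS, with 95% intervals of the limma model; filled points have an adjusted p under 0.05. Egr2 after LPS, at 1.81, is the only filled point.

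The genes most like each factor over the 12 arrays were found by the root mean square difference of their log2 signals after each gene's mean was removed. This was done for factors whose group means span at least 1 log2 unit. Candidates were 10222 genes whose highest group mean exceeded 5.53, the median signal, leaving out the factors and predicted or clone names. Nearest to Fosl2 were Rnf149 (0.181), Ptch1 (0.244) and Zc3h12a (0.262), the last an RNase that degrades cytokine mRNAs. Nearest to Junb were Ehd1 (0.207), Lcp2 (0.235) and Kctd12 (0.240), and to Batf the receptor gene Tlr2 (0.208), Lcp2 (0.229) and the NF-kB inhibitor Nfkbib (0.245). Atf3 was nearest to Rcl1 (0.242), Zc3h12c (0.275) and Spryd7 (0.278). Egr2 was nearest to Traf5 (0.381), the stromelysin gene Mmp3 (0.382) and Adh7 (0.408), and Egr1 to Dmwd (0.382), Nfu1 (0.389) and Wdr83os (0.436). Mmp3 and Adh7 exceeded 5.53 only in HDAC3 -/- cells with LPS (6.05 and 6.48), and Dmwd only in untreated HDAC3 +/- cells (5.76). In those groups Egr2 and Egr1 had their highest means, so these likenesses rest partly on the filter. Egr1 met the span only through its male untreated array, without which its group means spanned 0.86.

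For the list counts below, shares of all genes called are given first. LPS raised 9.59% and lowered 15.5% of all genes in HDAC3 +/- cells, and 3.69% and 5.18% in HDAC3 -/- cells. Against +/- cells, HDAC3 -/- cells had 1.22% higher and 1.44% lower untreated, and 9.69% and 5.99% after LPS. All lists were chosen with earlier results known, so no count is a test against these shares. Other bZIP genes, from a list of 24 of which 23 were measured, changed in both directions. In HDAC3 +/- cells LPS raised 9 (39.1%) and lowered 3 (13%), with a median of 0.30. In HDAC3 -/- cells it raised 6 (26.1%) and lowered 1 (4.35%), with a median of 0.23. Batf2, a relative of Batf, rose by 3.08 ± 0.171 and by 1.16 ± 0.171, and Cebpb, a C/EBP factor of activated macrophages, by 1.55 and 1.26 (limma, adjusted p at most 0.00123 for these 4 values). Mafk, a small Maf partner, rose by 1.90 and Nfil3 by 1.88 in HDAC3 +/- cells, and in HDAC3 -/- cells they were at 0.38 and 0.69, which did not pass. Jdp2, a Jun dimerization partner, rose by 1.07 and 1.65. Maf was at 0.30 in HDAC3 +/- cells, not past the threshold, and fell by 1.02 in HDAC3 -/- cells, a call lost without -/- untreated 2, -/- untreated 3 or -/- LPS 2. After LPS 5 (21.7%) were higher (3 without -/- LPS 3) and 6 (26.1%) lower in HDAC3 -/- than +/- cells. The myeloid factor Cebpa was higher by 2.33 ± 0.190, and Batf2 (-1.88), Maf (-1.70) and Mafk (-1.59) were lower. Untreated, 2 were higher, Cebpa by 1.16 and Cebpb by 1.12, the latter lost without -/- untreated 1. The responses of Batf2 (-1.92 ± 0.242, adjusted p = 0.00134) and Mafk (-1.52 ± 0.268, 0.0138) were smaller in HDAC3 -/- cells by the interaction test, and that of Mafk was lost (0.0546) without -/- untreated 1. No other gene of this list passed that test.

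Egr relatives and the NAB corepressors, which bind Egr proteins and damp them, made a list of 7. LPS raised 3 in HDAC3 +/- and 2 in HDAC3 -/- cells and lowered 0, with medians of 0.28 and 0.03. Nab2, itself an Egr target, rose by 0.92 ± 0.168 and 1.26 ± 0.168 (limma, adjusted p = 0.00125 and 0.000259). Nab1 rose by 0.71 and 0.52, and its call in HDAC3 -/- cells was lost with median centring and without any single array of that genotype. Klf6, a related zinc finger gene, rose by 0.98 in HDAC3 +/- cells. In HDAC3 -/- cells its means were 10.19 untreated and 9.78 with LPS, which was not a call. After LPS it was lower in HDAC3 -/- than +/- cells, at -0.98, with an interaction of -1.39 ± 0.180 (limma, adjusted p = 0.00160). Klf2 (1.12) and Klf10 (0.94) were higher in HDAC3 -/- cells after LPS. Both calls were lost with cyclic loess normalization, without both male arrays and without +/- LPS 1, -/- LPS 1 or -/- LPS 3, and that of Klf10 also with quantile normalization, with a replicate block and without +/- LPS 3.

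Of 23 listed genes of the MAP kinase and Srf pathway, upstream of both families, 19 were measured. LPS raised 5 (26.3%) and lowered 5 (26.3%) in HDAC3 +/- cells and raised 2 (10.5%) and lowered 4 (21.1%) in HDAC3 -/- cells, with medians of -0.05 and 0.18. In HDAC3 +/- cells Map2k4, a kinase of the JNK branch, rose by 1.66, and it was at 0.71 in HDAC3 -/- cells, which did not pass. In both genotypes Map2k6, a kinase of the p38 branch (-1.98 and -1.17), Map3k1 (-1.21 and -1.31), the Srf coactivator Mrtfa (-1.72 and -0.70) and Rps6ka5 (-1.49 and -0.82) fell. The call of Rps6ka5 in HDAC3 -/- cells was lost with quantile or cyclic loess normalization and without -/- untreated 1, -/- untreated 2, -/- LPS 1 or -/- LPS 3. Mapkapk2, a kinase below p38, rose by 1.01 and 1.23. Srf rose in HDAC3 -/- cells by 0.85 ± 0.174 (limma, adjusted p = 0.00681) and was at 0.19 in HDAC3 +/- cells, which did not pass. After LPS 6 (31.6%) were higher and 0 lower in HDAC3 -/- cells, where 9.69% and 5.99% of all genes were. Those higher included Mapk14, which encodes p38 alpha (1.21), Mapkapk2 (1.02), Mrtfa (0.96) and Srf (0.78 ± 0.174, limma, adjusted p = 0.00800). The number called lower ranged from 0 to 5 over the alternatives. Mapk14 means were 9.84 untreated and 8.56 with LPS in HDAC3 +/- cells, and 9.87 and 9.77 in HDAC3 -/- cells. In the interaction test only Mapk14 and Mrtfa of this list passed. The responses of Srf and Map2k4 were thus not shown to differ between genotypes.

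The list of 19 other immediate early genes held 9 (47.4%) that LPS raised and 1 (5.26%) that it lowered in HDAC3 +/- cells. In HDAC3 -/- cells 8 (42.1%) were raised and 0 lowered, and the medians were 0.72 in +/- and 0.76 in -/- cells. Dusp1, a phosphatase that switches off MAP kinases, rose by 2.93 and 2.14, Gadd45b, a stress gene that acts on MAP kinase signalling, by 2.46 and 2.39, and Phlda1 by 2.46 and 4.09. Zfp36, which promotes decay of cytokine mRNAs, rose by 2.11 and 1.90. Dusp2 rose by 3.38 in HDAC3 +/- cells and was at 0.75 in HDAC3 -/- cells, which did not pass. After LPS 3 (15.8%) were higher in HDAC3 -/- than +/- cells, including Rhob (3.24) and Phlda1 (2.12), and 4 (21.1%) were lower, including Dusp2 (-2.45) and Btg2 (-1.78). Rhob was called higher in untreated HDAC3 -/- cells too, by 1.70 ± 0.208 (adjusted p = 0.000370). The interaction was -2.64 ± 0.381 for Dusp2 (limma, adjusted p = 0.00382) and -1.54 ± 0.229 for Csrnp1 (0.00449).

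Genes known as AP-1 targets, 14 measured of 15 listed, rose with LPS in 9 cases (64.3%) in HDAC3 +/- and in 7 (50%) in HDAC3 -/- cells. Of them 0 fell, and the medians were 1.36 and 1.62. The collagenase gene Mmp13 rose by 6.63 and 4.09, Il1b by 6.57 and 6.88 and the protease inhibitor gene Timp1 by 5.59 and 2.99. Mmp3 rose by 2.57 ± 0.420 in HDAC3 -/- cells (limma, adjusted p = 0.00139) and was at 0.68 in HDAC3 +/- cells, which did not pass. Ccl2 rose by 3.58 in HDAC3 +/- cells, a call lost without +/- untreated 3, and was at 1.94 in HDAC3 -/- cells, which did not pass. After LPS 5 (35.7%) were higher and 2 (14.3%) lower in HDAC3 -/- cells: Mmp9 by 2.53, Mmp12 by 2.35 and Mmp3 by 1.84, against Timp1 at -2.83. Over the alternatives the number higher ranged from 2 to 7, and it fell by over 1.5 times without +/- LPS 3, -/- LPS 1 or -/- LPS 3. The Mmp3 call was lost without -/- LPS 3, and that of Mmp9 without +/- LPS 2, +/- LPS 3, -/- LPS 1 or -/- LPS 3. In -/- LPS 2 Mmp9 was at 5.36 and Mmp3 at 4.73, close to the highest +/- LPS arrays (5.33 and 4.73). Replicates 1 and 3 of that group read 8.57 and 9.05 for Mmp9 and 6.44 and 6.99 for Mmp3. In untreated cells 4 of the 14, or 28.6%, were already higher in HDAC3 -/- cells, where 1.22% of all genes were, and 0 were lower. Because the list was chosen with earlier results of these data known, this is not a test of enrichment. These were Mmp12 (2.91), the urokinase receptor gene Plaur (2.19), Mmp13 (1.31) and Hmox1 (1.28). The Plaur call was lost without +/- untreated 2, +/- untreated 3, -/- untreated 1 or -/- untreated 2. It was also lost with moderation by intensity and with only the groups compared. That of Mmp13 was lost in 17 of 23 alternatives. Among these were quantile and cyclic loess normalization, median centring, moderation by intensity, a replicate block and only the groups compared. It was further lost without both male arrays and without any single array except -/- untreated 3 and -/- LPS 2. Of the 14 genes the interaction passed for Mmp13 only, at -2.55 (0.0143), and was lost without -/- untreated 1 or -/- LPS 3.

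Genes that Atf3 is known to restrain made a list of 4, of which 3 rose with LPS in each genotype. Il6 rose by 6.44 and 3.47, and Ch25h, whose product makes an oxysterol, by 5.27 and 5.42. The IL-12 subunit gene Il12b rose by 3.65 and 5.22. Its LPS-treated HDAC3 +/- arrays read 10.93, 6.38 and 6.42, the first being the male one, against 9.16, 9.53 and 9.32 in HDAC3 -/- cells. With both male arrays left out the rise of Il12b in HDAC3 +/- cells was 2.22, and after LPS it was higher in HDAC3 -/- cells by 2.93 ± 0.249 (limma, adjusted p = 3.25e-05), with an interaction of 3.00 (0.00267). With all arrays these values were 1.43 (0.293) and 1.57 (0.673). In HDAC3 -/- cells after LPS 2 were lower, Ch25h at -2.99 and Il6 at -2.91 ± 0.291 (limma, adjusted p = 1.91e-05). The Ch25h call was lost without -/- LPS 3. Ch25h was lower by a like amount in untreated HDAC3 -/- cells, at -3.13 (0.0256), a call lost without +/- untreated 1, -/- untreated 1 or -/- untreated 3 and, at -2.23 (0.0914), without both male arrays. That call was also lost with moderation by intensity and with only the groups compared. Atf3 itself differed between genotypes by 0.35 after LPS and by 0.04 untreated, and passed in neither comparison. Known Egr targets, 5 measured of 6 listed, rose with LPS in 5 cases in HDAC3 +/- and in 4 in HDAC3 -/- cells. Csf1 rose by 2.88 and 1.43, Tnf by 2.72 and 2.43 and Icam1 by 1.38 and 1.76, and the tissue factor gene F3 by 1.36 in HDAC3 +/- cells, against 0.75 in HDAC3 -/- cells, which did not pass. Icam1 in HDAC3 +/- cells was lost without both male arrays, and Csf1 in HDAC3 -/- cells without -/- LPS 2. The interaction passed for 0 of the 5 Egr targets. After LPS Csf1 was lower in HDAC3 -/- cells, at -1.39, a call lost without -/- LPS 3, and 0 were higher. With both male arrays left out 1 was higher, Tnf, by 1.15 (adjusted p = 0.0182), against 0.98 (0.0888) with all arrays. Tnf also passed with array weights, with only the groups compared and without +/- untreated 1. Between untreated genotypes 2 MAP kinase pathway genes were called higher in HDAC3 -/- cells, Map2k2 (0.56) and Mapkapk2 (0.80). Both of these were lost without both male arrays, and the count fell in 17 of 23 alternatives, to as few as 0.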

How the data were processed

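RNA of 12 cultures was read on Affymetrix whole-transcript arrays. The authors deposited one log2 signal for each probe set and array, which the submitters' processing notes credit to RMA and affy; versions and genome build: not given in the sources used here. RMA is meant to bring arrays to a common distribution, so differences are relative to the bulk of genes. The deposited signals still differed in spread. Their interquartile range ran from 3.19 in +/- LPS 2 to 3.80 in +/- untreated 3, and +/- LPS 3 was at 3.20. Of 28193 probe sets 21648 had 1 gene symbol in the platform table, 1313 had several and 5232 none, and only the first kind was used; 21553 were matched to RefSeq of GRCm38.p6 by Entrez identifier. For 954 genes with several probe sets the one with the highest mean was taken, which gave 19945 genes. With all 12 arrays, 4 group means were estimated with limma 3.58.1 (lmFit, eBayes) in R 4.3.3, after a test on simulated data, and p-values were adjusted by Benjamini-Hochberg over all genes; an adjusted p under 0.05 was a call. Tables were made in Python 3.11.15 with pandas 2.3.3 and numpy 2.4.6, and figures with matplotlib 3.10.9.

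The 10 factors and all lists were chosen with earlier results of these data known. Named genes were the factors, Hdac3, the most changed called genes of a list (at most 4; if none was called, the 2 of lowest p) and the 3 nearest genes of a factor; Xist, Eif2s3y, and values of list genes in a comparison other than the one that named them, were added after their values were seen. Some listed genes were not analysed here.

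Deviations of untreated and LPS-treated arrays of the same replicate number correlated at 0.243, 0.327 and 0.223 in HDAC3 +/- cells and at 0.0898, 0.195 and -0.122 in HDAC3 -/- cells. Untreated and treated HDAC3 +/- arrays of unlike number reached at most 0.107. Across genotypes +/- untreated 2 and -/- untreated 3 reached 0.514, so correlations of this size do not establish a pairing. The main fit used no replicate block. Alternatives were other normalizations, filters, probe set rules, variance models and replicate blocks, each array left out, and both male arrays left out. The last of these and a fixed block within genotype were chosen after seeing the data.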

Additional observations from a re-analysis of the deposited data

Results flagged for a closer look

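None of the 10 factors met a rule for closer inspection, and groups of 3 arrays are too small to test single arrays as outlying. For 10 genes of the pathway lists the LPS response differed between the genotypes by the interaction test of limma. Values are the log2 response in HDAC3 -/- minus that in HDAC3 +/- cells. The response was lower in HDAC3 -/- cells for Il6 (-2.97), Dusp2 (-2.64), Batf2 (-1.92), Csrnp1 (-1.54) and Klf6 (-1.39), which passed under every alternative. Klf6 did not rise in HDAC3 -/- cells, with means of 10.19 untreated and 9.78 with LPS. The response was also lower for Mmp13 (-2.55), a call lost without -/- untreated 1 or -/- LPS 3, and for Mafk (-1.52), lost without -/- untreated 1. It was more positive in HDAC3 -/- cells for Rhob (1.55), Mapk14 (1.19) and Mrtfa (1.02). For Mapk14 and Mrtfa the means were lower with LPS in both genotypes, and less so in HDAC3 -/- cells. The Rhob call was lost with quantile normalization, without both male arrays, and without +/- untreated 1, +/- LPS 3, -/- untreated 1, -/- LPS 1 or -/- LPS 2. That of Mapk14 was lost with a replicate block and without +/- untreated 2 or 3, +/- LPS 3, -/- untreated 1 or 2, or -/- LPS 1 or 3. That of Mrtfa was lost in 14 of 23 alternatives, among them every array left out except +/- untreated 1, +/- LPS 1 and -/- LPS 2.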

How the results depend on the processing

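The LPS calls of Atf3, Fosl2, Junb and Batf in both genotypes, of Egr2 in HDAC3 -/- cells, and of Egr2 between genotypes after LPS held in all alternatives. With a replicate block across genotypes no factor's call changed; the adjusted p of the Egr2 interaction was 0.182 with it, 0.0839 with a random block within genotype and 0.0291 with a fixed one. The number of factors called between untreated genotypes was 1 with array weights (Egr1, -1.51, 0.0297). After LPS it was 2 with dim genes left out, with array weights and with both male arrays left out, and 1 to 2 with single arrays left out (2 without +/- untreated 1, +/- untreated 2 or +/- LPS 2, the last through Fosl2 at 0.77, 0.0425). For the interaction it was 1 with the fixed block within genotype and 0 to 1 with single arrays left out.

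Signs turned for values that had not passed. With array weights the untreated genotype difference was -0.26 for Fos and 0.016 for Jund, that after LPS 0.056 for Jund and 0.10 for Egr3, and the interaction 0.018 for Fos, 0.0061 for Jun, 0.040 for Jund, -0.031 for Batf and 0.056 for Egr3. With cyclic loess normalization the untreated difference was -0.017 for Atf3, that after LPS -0.036 for Jun, and the interaction -0.061 for Junb and -0.033 for Batf. With median centring the LPS difference of Egr3 in HDAC3 -/- cells was -0.00047. Without both male arrays the LPS difference of Egr1 in HDAC3 +/- cells was 0.57 and the interaction -0.19 for Egr1, -0.12 for Junb and 0.013 for Jund. Values with 1 array left out crossed 0 as follows. LPS in HDAC3 +/- cells: Fos -0.065 to 0.89, Egr1 -0.57 to 0.53. LPS in HDAC3 -/- cells: Fos -0.13 to 0.45, Jun -0.012 to 0.69, Egr3 -0.15 to 0.17. Untreated genotypes: Fos -0.40 to 0.55, Jund -0.22 to 0.12, Atf3 -0.089 to 0.22, Egr2 -0.018 to 0.35. Genotypes after LPS: Fos -0.47 to 0.11, Jun -0.063 to 0.52, Jund -0.21 to 0.0020, Egr3 -0.18 to 0.13. Interaction: Fos -0.74 to 0.22, Fosl2 -0.35 to 0.22, Jun -0.49 to 0.21, Junb -0.11 to 0.23, Jund -0.22 to 0.12, Batf -0.097 to 0.25, Egr1 -0.15 to 0.95, Egr3 -0.27 to 0.053. Their cause was not tested.

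Over all genes the number called with LPS in HDAC3 -/- cells was 1769 (4424 with array weights; 1143 without -/- untreated 1, 1129 without -/- LPS 1). Between untreated genotypes it was 531 (1186 with array weights, 321 with only these groups, 266 without -/- untreated 1). After LPS it was 3127 (1828 without +/- LPS 3, 2023 without -/- LPS 1, 1685 without -/- LPS 3). For the interaction it was 216 (592 with array weights, 347 with the random block, 349 without +/- LPS 1, 126 without +/- LPS 3, 97 without -/- untreated 1, 121 without -/- LPS 1, 113 without -/- LPS 3). Counts of list genes that moved by over 1.5 times ranged as follows. LPS in HDAC3 +/- cells lowered 1 to 4 bZIP genes, 0 to 1 Egr relative and 0 to 1 immediate early gene. LPS in HDAC3 -/- cells lowered 0 to 3 bZIP genes, 0 to 1 Egr relative and 0 to 1 immediate early gene, and raised 1 to 3 Egr relatives and 2 to 5 MAP kinase pathway genes. Between untreated genotypes 1 to 3 bZIP genes, 0 to 1 Egr relative, 0 to 2 MAP kinase pathway genes, 1 to 2 immediate early genes, 2 to 5 AP-1 targets and 0 to 1 Egr target were higher, and 0 to 1 bZIP gene and 0 to 1 gene restrained by Atf3 lower. After LPS 3 to 7 bZIP genes, 0 to 2 Egr relatives, 2 to 7 AP-1 targets, 0 to 1 gene restrained by Atf3 and 0 to 1 Egr target were higher, and 1 to 2 Egr relatives, 0 to 5 MAP kinase pathway genes, 1 to 2 AP-1 targets, 1 to 2 genes restrained by Atf3 and 0 to 1 Egr target lower. The interaction was positive for 0 to 2 bZIP genes, 0 to 2 MAP kinase pathway genes, 0 to 2 immediate early genes, 0 to 2 AP-1 targets and 0 to 1 gene restrained by Atf3, and negative for 1 to 3 bZIP genes, 0 to 2 AP-1 targets and 0 to 1 Egr target. With moderation by intensity the calls of Ccl2 with LPS in HDAC3 +/- cells and of Mmp9 between genotypes after LPS were lost. Those of Plaur, Mmp13 and Ch25h between untreated genotypes and of the Mrtfa interaction were lost too.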
